A study of Mus musculus with 41 samples.

Results

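Translation efficiency (TE) is the number of ribosome footprints on the coding sequence of a gene relative to the level of its mRNA. Here its change after loss of Hbs1l was measured in mouse embryonic fibroblasts (MEFs) from 12 of the 41 libraries of the series, chosen by their labels: 3 footprint libraries and 3 RNA-seq libraries from Hbs1l mutant cells, and 3 of each from control cells. All groups were primary C57BL/6 MEFs that carried CAG-Cre ER, a Cre recombinase that the ubiquitous CAG promoter drives and that tamoxifen activates, and all were treated with tamoxifen. The mutant cells carried Hbs1l cKO in addition, and are called Hbs1l-/- below. Per the study's methods they had a floxed and a null Hbs1l allele, so that 1 allele was already lost in the embryo and the other was deleted in culture days before collection, while the controls had neither. All were homozygous for the B6J allele of n-Tr20, a tRNA gene. Each RNA replicate was a dish of cells from a single embryo and each footprint replicate was pooled from dishes of a single embryo. The footprints of both genotypes were sequenced in batch 3 and the RNA of both genotypes in batch 6. Batch and assay therefore cannot be told apart, while each genotype comparison was made within a batch.

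HBS1L is a translational GTPase that acts with PELO to release stalled ribosomes, such as those near the end of a truncated mRNA. The pair splits such ribosomes so that their subunits can be used again and the mRNA can be degraded. A change in footprints can therefore come from a change in mRNA level, from a change in how often ribosomes initiate, or from a change in how long they stay on the coding sequence. A footprint count alone does not separate these.

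Footprint libraries held 5922807 to 14347869 counts over coding sequences, and RNA libraries held 22713643 to 86425762 estimated counts over transcripts. The spread between replicates was smaller in footprints than in RNA, with a biological coefficient of variation of 0.0826 in the footprint fit and 0.150 in the RNA fit. Control RNA library 1 stood apart with 15.7% of its estimated counts on rRNA transcripts, against 5.90% to 10.1% in the other 5 RNA libraries. Control number 3 was the only replicate with reads from the Y chromosome beyond a few counts: its Ddx3y count was 1270 in footprints and 2289 in RNA, against at most 12 in any other of these libraries. All 10 fibroblast markers were measured, of which 6 rose and 1 fell in mutant RNA, against 12.7% and 10.4% of all genes. The median log2 change over all 10 was 0.72, while none of the 7 erythroid markers reached the level needed for a test. The MEFs of both genotypes also held RNA of macrophage and muscle markers, which are described with the gene groups.

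Hbs1l itself was lower in every mutant library. Its gene lies at chr10:21295979-21368898 on the plus strand (GRCm38). Footprints stood at 2.59, 1.67 and 1.51 CPM (counts scaled to a common library size) in the 3 mutant libraries and at 35.3, 39.4 and 32.6 CPM in the 3 controls. Its RNA stood at 10.9, 13.2 and 13.8 CPM in the mutants and at 84.1, 87.5 and 91.9 CPM in the controls, so the groups did not overlap in either assay. The log2 fold change was -4.15 (SE 0.18) in footprints and -2.78 (SE 0.12) in RNA, with adjusted p = 1.6e-08 and 1.6e-05 by edgeR's quasi-likelihood test. The isoforms differed: in values not scaled between libraries, Hbs1l-209 stood at 47.4 to 64.7 CPM in controls and 0.00216 to 3.13 CPM in mutants, while Hbs1l-201 stood at 13.2 to 18 CPM in controls and 3.32 to 6.00 CPM in mutants. Of the other protein-coding isoforms, at low levels, Hbs1l-203 stood at 1.72 to 2.14 CPM in controls and 2.07 to 4.75 CPM in mutants, and Hbs1l-202 at 0.576 to 1.15 and 0.276 to 1.52 CPM, so that both overlapped between the groups. The log2 change in TE was -1.36 (SE 0.22), which did not pass the threshold (adjusted p = 0.0563 by edgeR). Pelo, the partner of HBS1L, did not pass the test in any measure, with log2 changes of -0.06 in footprints, 0.22 in RNA and -0.26 in TE (SE 0.15).

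At the level of single genes, few TE changes passed the threshold. Of 13146 genes tested for the interaction of assay and genotype, 2 (0.0152%) were called at an adjusted p below 0.05 by edgeR with Benjamini-Hochberg adjustment: Banp, whose TE was lower, and Klf10, whose TE was higher, each the single gene called in its direction (0.00761%). By contrast, 4083 of 11984 genes tested (34.1%) changed in footprints and 3527 of 15257 (23.1%) changed in RNA by the same test. The RNA count was 1820 without control RNA 2 and 2217 without Hbs1l-/- RNA 2. With a library left out the TE count ranged from 0 to 39, the highest without control RNA 1. At an unadjusted p below 0.05 there were 2116 genes for TE (16.1%), against 43.7% of genes in footprints and 38% in RNA. The 3 mutant and 3 control libraries did not overlap for 46.5% of genes in footprints and 48.5% in RNA. The count for TE depended on the tool: the Wald test of DESeq2 called 313 genes and limma voom with sample quality weights called 170, of which 154 were shared. The precision behind these calls can be read from the intervals: the 95% interval of the TE change lay inside a 2-fold change in either direction for 9609 genes (73.1%) and inside a 1.5-fold change for 5012 genes (38.1%), while the estimate itself was beyond 2-fold for 443.

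Banp encodes a nuclear protein that binds DNA, and lies at chr8:121949750-122029258 on the plus strand. Its footprints were 43.3, 38.8 and 38.7 CPM in mutants and 38.5, 39.8 and 39.6 CPM in controls, which overlap. Its RNA was 48.2, 42.8 and 45.2 CPM in mutants against 23.7, 19.6 and 22.0 CPM in controls, with no overlap. RNA rose by 1.07 on the log2 scale (SE 0.11, adjusted p = 0.000761 by edgeR) while the footprint change was 0.04, so that TE fell by 1.02 (SE 0.13, adjusted p = 0.0171 by edgeR). The isoform with the highest level, Banp-202, stood at 6.66 to 9.77 CPM in control RNA and at 19.5 to 20.7 CPM in mutant RNA. The TE change of Banp lay between -1.08 and -0.85 over 26 alternative fits and was called in 18 of them. It was not called when any of 6 libraries was left out, namely Hbs1l-/- footprints 2 or 3, control footprints 1 or 2, or control RNA 2 or 3, where adjusted p ranged from 0.0659 to 0.119 by edgeR, nor with protein-coding transcripts only or without control number 3 in both assays (adjusted p = 0.0521 and 0.166).

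Klf10, a zinc-finger transcription factor induced by TGF-beta, lies at chr15:38291463-38300706 on the minus strand. Footprints were 107, 105 and 108 CPM in mutants and 78.9, 78.4 and 78.2 CPM in controls. Estimated RNA counts were 9909, 8109 and 6924 CPM in mutants and 11660, 13940 and 15690 CPM in controls. The groups did not overlap in either assay and moved in opposite directions: footprints rose by 0.45 (SE 0.07), RNA fell by 0.71 and TE rose by 1.17 (SE 0.18, adjusted p = 0.0497 by edgeR). The TE call was made in 13 of the 26 alternative fits and was lost when any of 9 of the 12 libraries was left out, with adjusted p from 0.0797 to 0.216 by edgeR; it held without Hbs1l-/- RNA 1 or 3 or control RNA 1.

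The RNA side of the Klf10 change rested on a short annotated transcript, Klf10-204, of 326 bases. This transcript holds a run of 33 A, at positions 175 to 207. Whether the run itself matters was not tested. The stretch from position 166 to 195 is shown, with the run in capitals, because the call was lost without this transcript.
Klf10-204: ggcatgtgcAAAAAAAAAAAAAAAAAAAAA
Klf10-204 alone took 0.852%, 0.726% and 0.600% of all estimated counts in the mutant RNA libraries and 0.941%, 1.24% and 1.38% in the controls. The full-length transcript Klf10-201 stood at 19.1 to 23.7 CPM across all 6 libraries. When Klf10-204 was left out of the RNA counts, an alternative chosen after seeing the data, the TE change of Klf10 was 0.20 (adjusted p = 0.438 by edgeR) and Banp was the only gene called. Where the reads assigned to Klf10-204 came from was not tested.

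**Figure D1:**
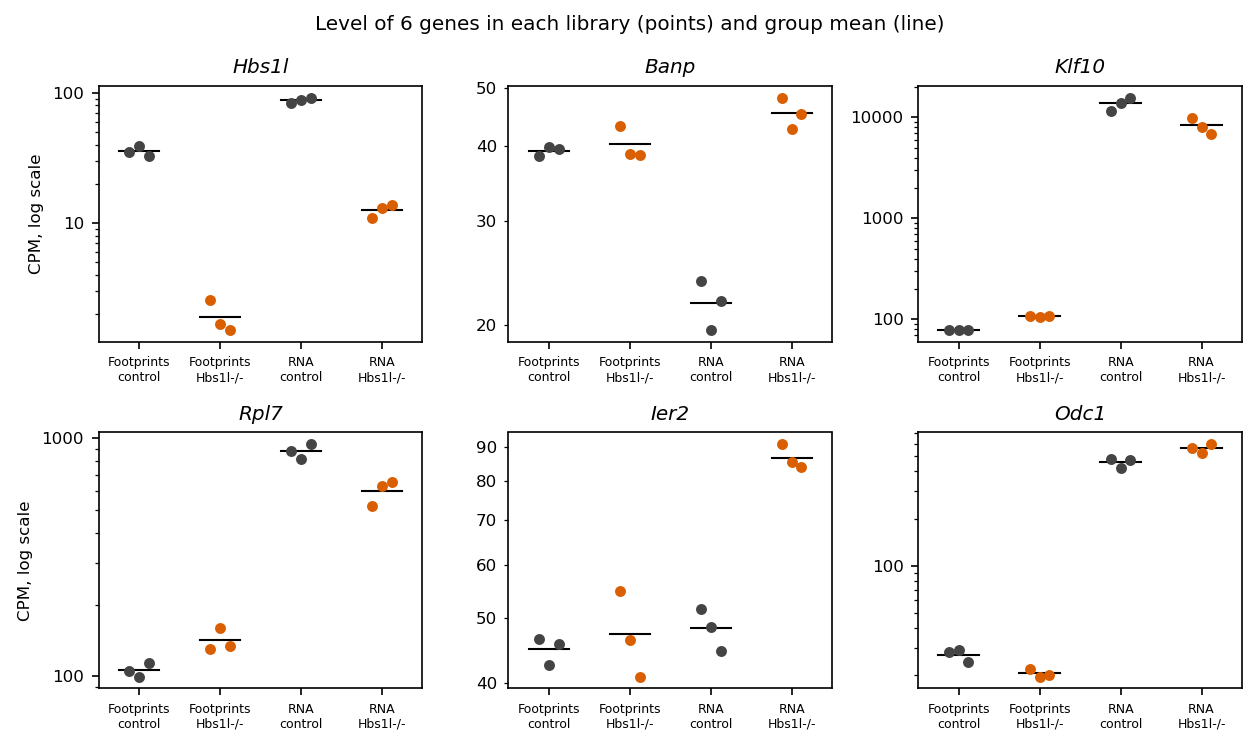
Level of Hbs1l, Banp, Klf10, Rpl7, Ier2 and Odc1 in each footprint and RNA library, in CPM on a log scale, with points for libraries (3 per group) and a line for the group mean. Banp and Ier2 are higher in all 3 mutant RNA libraries than in any control while their footprints overlap. Klf10 and Rpl7 are higher in mutant footprints and lower in mutant RNA.

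Footprints followed RNA over most of the range of change among genes that passed the filter on low counts. Over the 11904 genes tested in all 3 fits, the log2 changes in footprints and RNA had a Pearson correlation of 0.784 and a Spearman correlation of 0.636, and they had the same sign for 70.6% of genes. With no filter the Pearson correlation was 0.4413. These values are across genes, which are not independent replicates. The slope of footprint change on RNA change was 0.781, and the slope in the other order was 0.787. Footprint and RNA changes had nearly the same spread across genes, with an SD of 0.521 and 0.523, while TE changes had an SD of 0.342.

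The direction was shared most often among genes with large RNA changes. All 303 genes that rose at least 2-fold in RNA had a footprint change above 0, and 84.8% of them also rose in footprints by edgeR's test. Of the 259 genes that fell at least 2-fold in RNA, 99.2% had a footprint change below 0 and 84.6% fell in footprints. The SD of the TE change was larger in these groups, at 0.419 among those that rose and 0.504 among those that fell, against 0.342 over all genes. The Pearson correlation was 0.893 among those that rose, above the 0.784 of all genes, and 0.696 among those that fell, below it. The RNA changes also spread more among those that rose (SD 0.763) than among those that fell (SD 0.459). The slopes of footprint on RNA change were close, at 1.07 and 1.05. Among the 67 genes with an RNA log2 change above 2 the median RNA change was 2.72 and the median footprint change 2.68, and among the 253 with a change between 1 and 2 these medians were 1.27 and 1.08. At the other end, the 37 genes with an RNA change of -2 or lower had medians of -2.35 in RNA and -2.07 in footprints. Without regard to size, 1915 genes were called in the same direction in both assays and 13 in opposite directions. Among genes tested in all 3 fits, the 1915 are 60.8% of the 3148 called in RNA and 47.1% of the 4062 called in footprints.

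**Figure D2:**
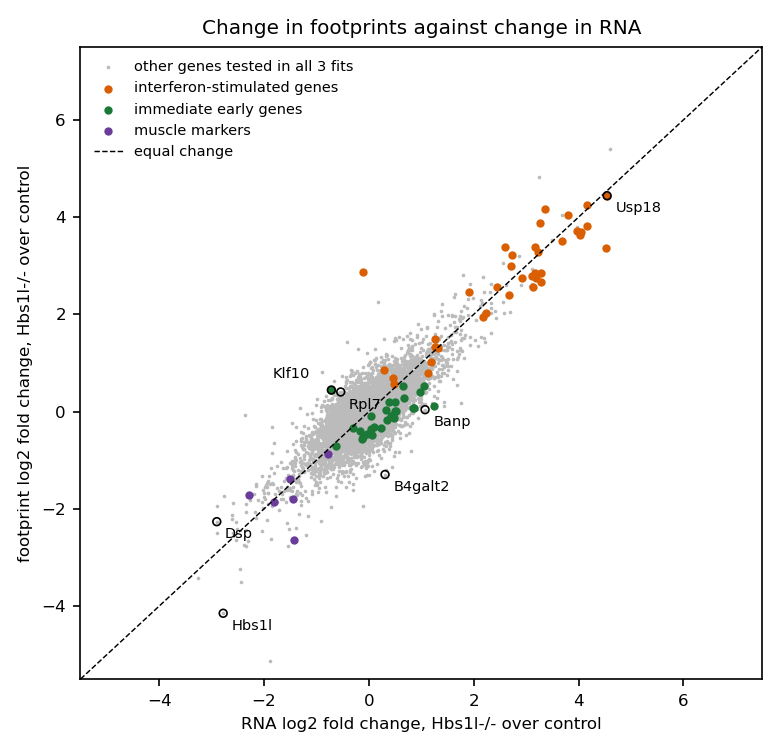
Change in footprints against change in RNA, Hbs1l-/- over control, as log2 fold changes for the genes tested in all 3 fits, with each point a gene and the dashed line marking equal change. The interferon-stimulated genes lie near the line up to Usp18 (RNA 4.54, footprints 4.44) and the muscle markers near it below 0, while most immediate early genes lie below the line, and Klf10, Rpl7, Banp and B4galt2 are ringed away from it.

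The largest parallel rises were in interferon-stimulated genes, whose products act against viruses. Of the 42 listed genes tested in RNA, 38 rose, against 12.7% of all genes, and 36 of the 37 tested in footprints rose, against 17.4% of all genes. Usp18, a protease that removes ISG15 from proteins, had footprints of 31.6, 40.8 and 21.1 CPM in mutants and 1.39, 1.14 and 1.70 CPM in controls. Its RNA was 22.3, 30.4 and 14.7 CPM in mutants and 0.926, 0.818 and 1.07 CPM in controls. Mutant library 2 was the highest and mutant library 3 the lowest in both assays, and no mutant library overlapped a control. The changes of Usp18 were 4.44 in footprints, 4.54 in RNA and -0.07 in TE (SE 0.48). The list as a whole had median log2 changes of 3.17 in RNA, 2.85 in footprints and -0.03 in TE, and its TE median ranged from -0.24 to 0.26 over the alternatives. Of the 42 genes 2 had a TE change at an unadjusted p below 0.05, and both were higher. Slfn5, a Schlafen family gene, had footprints of 8.05, 10.03 and 4.36 CPM in mutants against 0.955, 0.837 and 1.16 CPM in controls, while its RNA was 3.58, 4.49 and 3.10 CPM against 7.51, 2.86 and 2.38 CPM. Its footprints rose by 2.88, and its TE change of 3.01 (SE 0.61) was not called (adjusted p = 0.102 by edgeR). Ifit2, an interferon-induced protein that binds RNA, rose by 0.85 in footprints with an RNA change of 0.28 that did not pass the test, and its TE change was 0.57 (SE 0.27, adjusted p = 0.308 by edgeR).

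Falls were followed as well. Rgs5, a regulator of G-protein signalling found in pericytes, had footprints of 14, 15.1 and 22.0 CPM in mutants and 87.6, 113 and 85.8 CPM in controls, and RNA of 5.63, 7.68 and 11.5 CPM in mutants and 76.2, 60.3 and 52.0 CPM in controls. It fell by 2.49 in footprints and by 2.90 in RNA, with a TE change of 0.42 (SE 0.31). Dsp, which encodes the desmosome protein desmoplakin, fell by 2.26 in footprints and 2.90 in RNA, and Acta1, the skeletal muscle actin, by 2.28 and 2.54. Of the 15 smooth muscle contractile genes, 13 fell in footprints and 12 in RNA, against 16.7% and 10.4% of all genes, with a TE median of -0.03. Actg2, an enteric smooth muscle actin, fell by 1.20 in footprints and by 1.06 in RNA. Markers of other cell types moved in both assays too. All 6 muscle markers tested fell in footprints and 5 fell in RNA, against 16.7% and 10.4% of all genes, with medians of -1.75 and -1.47. Of the others, 6 of 7 macrophage markers rose in footprints and 5 in RNA, against 17.4% and 12.7% of all genes, with medians of 0.72 and 0.79. Of the 4 neural markers tested, 3 fell in footprints and 3 in RNA, against 16.7% and 10.4% of all genes, with medians of -0.76 and -0.68. Among endothelial markers 2 of 4 fell in footprints, against 16.7% of all genes. In RNA 2 of 5 fell and 1 rose, against 10.4% and 12.7% of all genes. Their medians were -0.32 in footprints and -0.50 in RNA. Fewer cells of a type and less RNA per cell cannot be told apart in these bulk samples.

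Many proliferation genes rose in footprints and in RNA. Of 40 DNA replication genes, 31 rose in footprints and 23 in RNA, against 17.4% and 12.7% of all genes, and none fell. Their TE median was 0.02, and 0.05 after a correction for GC content and length that is described with the base composition. Mcm5, a subunit of the replicative helicase, had footprints of 219, 240 and 194 CPM in mutants and 117, 112 and 127 CPM in controls, and its change was 0.87 in footprints, 0.97 in RNA and -0.09 in TE (SE 0.14). Of 41 mitosis genes, 39 rose and 1 fell in footprints, while 20 rose and none fell in RNA. Of all genes, 17.4% rose and 16.7% fell in footprints, and 12.7% rose and 10.4% fell in RNA. The TE median was 0.19, and 0.09 after the same correction. Mki67, which coats mitotic chromosomes, had footprints of 389, 325 and 358 CPM in mutants against 168, 145 and 198 CPM in controls with no overlap, while its RNA of 53.4, 74.9 and 57.5 CPM overlapped the control values of 35.6, 65.4 and 55.1 CPM. Its footprints rose by 1.07, its RNA change was 0.26, and its TE change was 0.82 (SE 0.25, adjusted p = 0.170 by edgeR), or 0.36 after the correction.

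**Figure D3:**
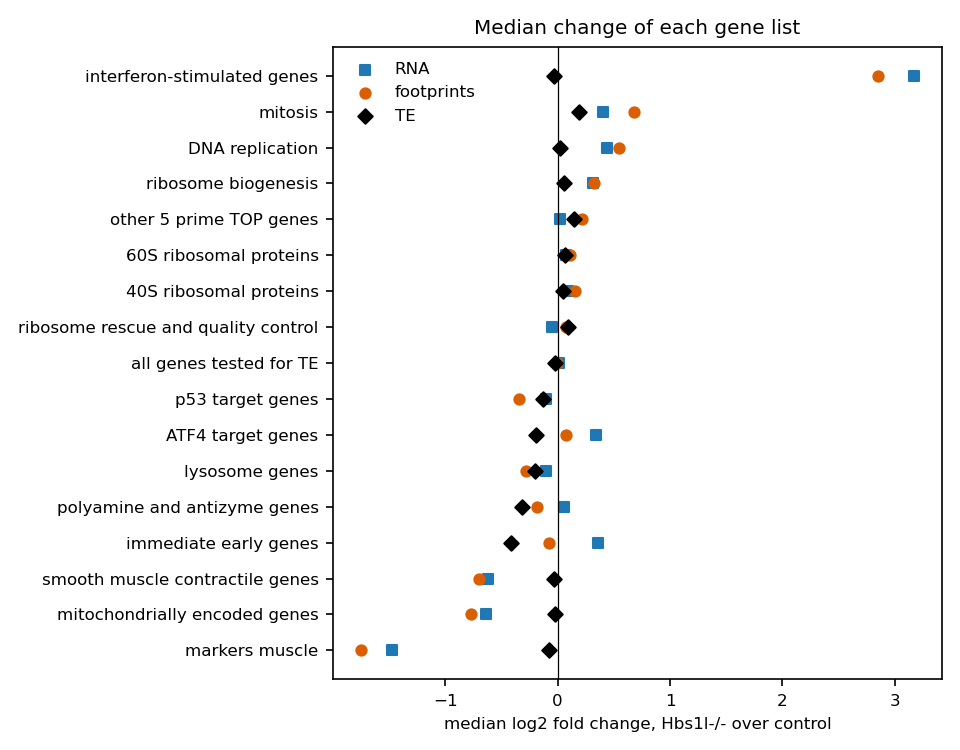
Median log2 fold change, Hbs1l-/- over control, of RNA (squares), footprints (circles) and TE (diamonds) for 16 gene lists and for all genes tested for TE. The RNA and footprint medians of interferon-stimulated, smooth muscle and muscle marker genes lie far from 0 with a TE median near 0, and the immediate early genes have the lowest TE median as fitted, -0.42.

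TE changes varied with base composition. Transcript GC content, averaged over the isoforms of a gene by abundance, had a Spearman correlation of -0.563 with the TE change over 11902 genes, against 0.362 with the RNA change and -0.0984 with the footprint change. In the lowest decile of genes by GC, with a median GC of 41.0%, the median change was 0.36 in TE, -0.31 in RNA and 0.04 in footprints, and 88.1% of genes had a TE change above 0. Without Hbs1l-/- RNA 1 the median TE change of this decile was 0.20. In the highest decile, with a median GC of 59.7%, the medians were -0.25 in TE, 0.20 in RNA and -0.07 in footprints, and 14.8% of genes had a TE change above 0.

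The trend differed between the libraries, most in Hbs1l-/- RNA 1. In the lowest decile, the median log2 deviation from the mean of the 6 RNA libraries was -0.50 in Hbs1l-/- RNA 1, 0.04 and -0.01 in the other mutant RNA libraries, and 0.12, 0.26 and 0.08 in the controls. The footprint libraries lay between -0.10 and 0.09 there. Without Hbs1l-/- RNA 1 the correlation of TE with GC was -0.424 over the same genes. Over all genes tested for TE it was -0.51. With each library left out in turn it was weakest without Hbs1l-/- RNA 1 (-0.383), control footprints 2 (-0.422) and Hbs1l-/- footprints 3 (-0.453). It was strongest without Hbs1l-/- RNA 2 (-0.574). GC content and transcript length together accounted for 33.4% of the variance of TE changes across genes, and for 21.4% without that library. How much of the trend belongs to the genotype and how much to the libraries was not tested.

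Coding starts are shown for 3 genes called in opposite directions in the assays, 2 of low and 1 of high transcript GC. They are the first 30 bases from the start codon in Gencode M21, with G and C in capitals.
Cep290: atGCCaCCtaatataaaGtGGaaaGaatta
Atrx: atGaCCGCtGaGCCCatGaGtGGaaaCaaG
B4galt2: atGaGCaGaCtGCtGGGGGGGaCGCtGGaG
Of these 30 bases, 9 are G or C in Cep290, 16 in Atrx and 20 in B4galt2, while the whole transcripts hold 37.9%, 39.5% and 61.4% GC. The first bases thus do not always follow the transcript: in Junb, an immediate early gene whose transcript holds 62.6% GC, 12 of the 30 are G or C. Cep290, a protein of the base of the cilium, rose by 0.34 in footprints and fell by 0.66 in RNA. B4galt2, a galactosyltransferase of the Golgi, fell by 1.29 in footprints, from 3.49 ± 1.13 CPM in controls to 1.41 ± 0.0671 CPM in mutants (SD, n = 3), and rose by 0.31 in RNA, from 53.3 ± 3.87 to 65.5 ± 4.16 CPM. Their TE changes were 0.99 (SE 0.19) and -1.59 (SE 0.28), with adjusted p = 0.102 and 0.0783 by edgeR.

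When GC content and length were fitted in each library and removed, an alternative chosen after seeing the data, 38 genes were called for TE, 12 higher and 26 lower, and the correlation of footprint with RNA changes was 0.848. Any change of genotype that itself follows GC content is removed with it. Among the 38, Banp (-0.85), Klf10 (1.28), Hbs1l (-1.46) and Rpl7 (0.84) were called in this fit by edgeR. Of the genes with coding starts shown, B4galt2 was also called (-1.35, adjusted p = 0.0419 by edgeR). Cep290, whose TE change was 0.51 after the correction, and Atrx, at 0.49, were not called.

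**Figure D4:**
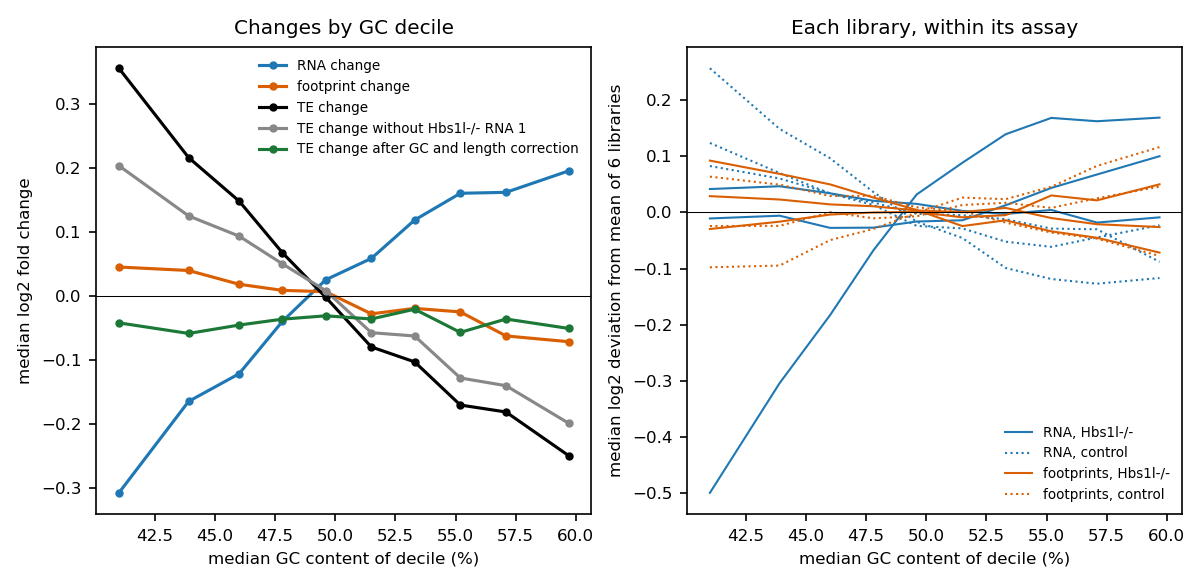
Changes by GC content. Left, median log2 change of RNA, footprints and TE in deciles of genes ordered by GC content, with the TE change without Hbs1l-/- RNA 1 and after the GC and length correction; right, median log2 deviation of each library from the mean of the 6 libraries of its assay. The TE change runs from 0.36 in the lowest decile to -0.25 in the highest, and Hbs1l-/- RNA 1 lies at -0.50 in the lowest.

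Of the gene lists, the immediate early genes had the lowest TE median as fitted, though not after the GC and length correction. They are transcribed within minutes of growth factor signalling, without new protein synthesis, and encode mostly transcription factors such as the FOS, JUN and EGR families and phosphatases that limit MAP kinase signalling. In RNA 14 of the 28 rose and 2 fell, against 12.7% and 10.4% of all genes. In footprints 4 rose, a share near the 17.4% of all genes, and 8 fell, against 16.7%. The TE change was below 0 in 27 of 28, with a median of -0.42, against 52.7% of all genes, and it was below 0 at an unadjusted p below 0.05 in 15, against 16.1% of all genes in either direction; 1, Klf10, was called, and it was higher.

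Egr1, a zinc-finger transcription factor, had RNA of 128, 136 and 116 CPM in mutants and 36.1, 63.1 and 62.7 CPM in controls, while its footprints were 206, 144 and 132 CPM in mutants and 160, 103 and 184 CPM in controls. The groups were apart in RNA and overlapped in footprints. Its RNA rose by 1.24, its footprint change was 0.12 and its TE change was -1.11 (SE 0.31, adjusted p = 0.150 by edgeR). Ier2, a nuclear protein, had RNA of 90.7, 85.3 and 83.8 CPM in mutants and 51.5, 48.5 and 44.6 CPM in controls. Its footprints of 54.9, 46.3 and 40.8 CPM in mutants spanned the control values of 46.5, 42.5 and 45.7 CPM, and its TE change was -0.77 (SE 0.15, adjusted p = 0.102 by edgeR).

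Other members differed in which assay moved. Jun, a subunit of AP-1, rose in both, with RNA of 188, 164 and 149 CPM against 83.9, 97.7 and 75.9 CPM and footprints of 219, 192 and 200 CPM against 156, 142 and 163 CPM, so that its RNA change of 0.97 exceeded its footprint change of 0.41. Ccn1, a secreted matricellular protein, rose by 0.46 in RNA with a footprint change of -0.06. Dusp6, a phosphatase of ERK, fell by 0.48 in footprints with an RNA change of 0.06, and its TE change was -0.54. Dusp4 fell in both assays, by 0.72 in footprints and 0.63 in RNA.

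The members of the list have a median GC content of 54.5%, above the 50.6% of all genes tested. After the GC and length correction the median was -0.30, and 24 of 28 lay below 0, against a median of -0.04 for all genes. Without Hbs1l-/- RNA 1 the median was -0.45, with 27 of 28 below 0. Over all alternatives the median lay between -0.47 and -0.30.

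**Figure D5:**
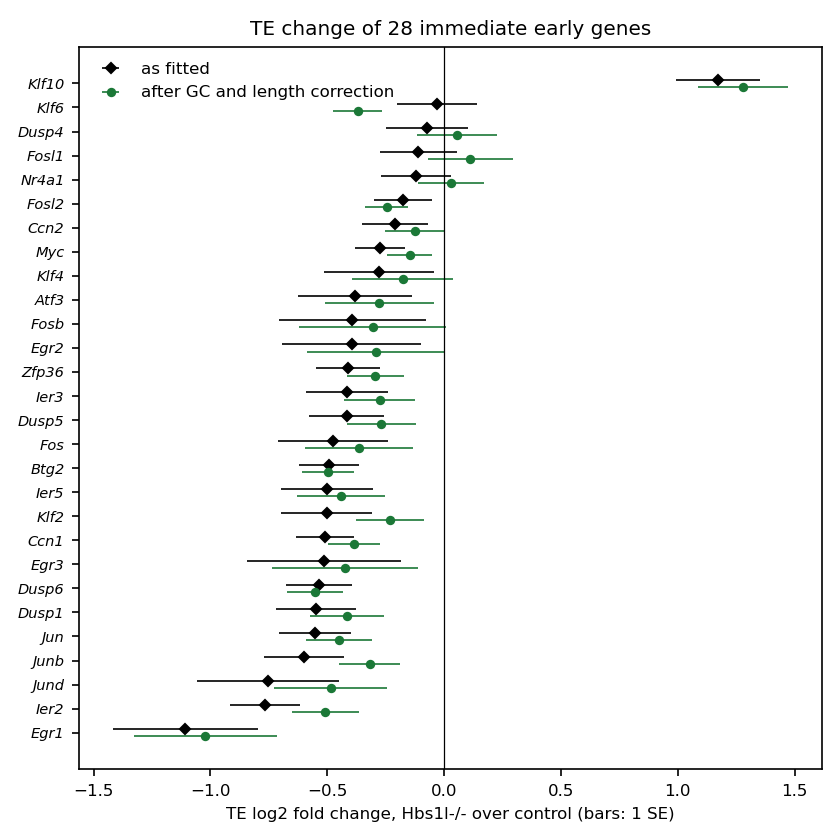
TE log2 fold change, Hbs1l-/- over control, of the 28 immediate early genes, as fitted (diamonds) and after GC and length correction (circles), with bars of 1 SE. As fitted, 27 genes lie below 0 and Klf10 lies at 1.17; after correction 24 lie below 0.

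Lysosome genes had a TE change below 0 in 36 of 45 members, against 52.7% of all genes, with a median of -0.20 as fitted and -0.11 without Hbs1l-/- RNA 1. At an unadjusted p below 0.05 there were 8 members, all lower, which is 17.8%. Of all 13146 genes tested for TE, 1095 were lower and 1021 higher at that threshold, which is 16.1% in either direction. In footprints 26 fell and 3 rose, against 16.7% and 17.4% of all genes, and in RNA 9 fell and 3 rose, against 10.4% and 12.7%. Ctsd, an aspartic protease of the lysosome, had footprints of 363, 373 and 365 CPM in mutants and 585, 600 and 568 CPM in controls, which were far apart, and its RNA was 875, 729 and 724 CPM against 926, 859 and 871 CPM. Its footprints fell by 0.67, its RNA change was -0.18 and its TE change was -0.48 (SE 0.12, adjusted p = 0.140 by edgeR). Atp6v1a, a subunit of the proton pump, went the other way, falling by 0.44 in footprints and 0.83 in RNA with a TE change of 0.41. After GC and length correction 35 of 45 lay below 0 and the median was -0.12. Over all genes in that fit 7419 of 13146 lay below 0, with a median of -0.04.

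Targets of ATF4, the transcription factor of the integrated stress response, included 12 of 26 genes that rose and 1 that fell in RNA, against 12.7% and 10.4% of all genes. In footprints 8 rose and 2 fell, against 17.4% and 16.7% of all genes, and the TE median was -0.19. Nupr1, a small stress-induced chromatin protein, fell in both assays, by 1.14 in footprints and 1.02 in RNA. Stc2, a secreted glycoprotein, rose by 1.35 in RNA and 0.87 in footprints. Chac1, which degrades glutathione, fell by 0.39 in footprints with an RNA change of 0.31, and its TE change was -0.68 (SE 0.20, adjusted p = 0.153 by edgeR). After the correction the median of the list was -0.15, against -0.04 for all genes.

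Ribosome rescue and quality control genes, the pathway of HBS1L, had 11 of 27 members that rose in footprints and 1, Hbs1l, that fell, against 17.4% and 16.7% of all genes. In RNA 5 rose and 2 fell, shares near the 12.7% and 10.4% of all genes. Their TE change had an unadjusted p below 0.05 in 11 members, 8 higher and 3 lower, which is 40.7% against 16.1% of all genes. The deleted gene, Hbs1l, is counted among the 3 lower. The median was 0.09 as fitted and 0.0074 after GC and length correction. In the corrected fit 3 were higher and 1, Hbs1l, lower at that threshold, a share near the 14.3% of all genes in that fit. Nemf, which marks nascent chains on stalled large subunits, had footprints of 90.2, 82.8 and 99.9 CPM in mutants and 76.1, 75.3 and 82.0 CPM in controls, and RNA of 18.2, 24.4 and 26.6 CPM against 29.0, 36.0 and 33.7 CPM. It rose by 0.23 in footprints and fell by 0.49 in RNA, with a TE change of 0.73 as fitted and 0.34 after the correction. Gtpbp1, a GTPase related to HBS1L, rose in footprints (44.2, 47.3 and 40.9 CPM against 28.6, 32.5 and 28.7 CPM) and in RNA (86.5, 76.5 and 84.6 CPM against 54.2, 53.8 and 59.0 CPM). Its changes were 0.55 and 0.58, with a TE change of -0.01 (SE 0.13). Abce1, which splits ribosomes after PELO, rose by 0.25 in footprints with an RNA change of -0.50 that did not pass the test. Its TE change was 0.76 as fitted, 0.48 without Hbs1l-/- RNA 1 and 0.36 after the correction.

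Genes of the cytosolic translation apparatus had TE medians somewhat above 0 as fitted, whereas the median of 75 mitochondrial ribosomal proteins was -0.09. The TE median was 0.07 for 47 proteins of the 60S subunit, 0.05 for 33 of the 40S subunit and 0.15 for 20 other genes with a 5′ terminal oligopyrimidine tract, through which mTORC1 controls translation. With a library left out the 60S median ran from -0.04 to 0.20 and the 40S median from -0.08 to 0.13. The direction of both thus depended on single libraries, while the median of the 20 other genes ran from 0.09 to 0.19. The 3 medians as fitted were further compared with the corrected fit. After GC and length correction these medians were 0.14, 0.05 and 0.17, against -0.04 for all genes, and 31 of 47, 19 of 33 and 15 of 20 members lay above 0. Of the 60S proteins 8 were higher and 3 lower at an unadjusted p below 0.05 as fitted, and 11 higher and 2 lower after the correction, against 16.1% and 14.3% of all genes in either direction. Of the last group 10 rose and 2 fell in footprints, against 17.4% and 16.7% of all genes, and none passed the test in RNA. Eef1a1, the factor that brings tRNA to the ribosome, rose by 0.35 in footprints with an RNA change of -0.05. Npm1, a nucleolar chaperone, rose by 0.41 in footprints with an RNA change of -0.27 and a TE change of 0.69 (SE 0.19, adjusted p = 0.146 by edgeR). Eif4ebp2, an mTORC1 target that blocks cap-dependent initiation, moved the opposite way. Its footprints were 11.6, 10.9 and 10.8 CPM in mutants and 18.4, 16.7 and 18.5 CPM in controls, while its RNA lay between 170 and 202 CPM in all 6 libraries. Its footprints fell by 0.68 and its TE change was -0.72 (SE 0.13, adjusted p = 0.102 by edgeR, and 0.0384 after GC and length correction).

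Rpl7, a protein of the large subunit, was among the 13 genes called in opposite directions. Its footprints were 130, 160 and 134 CPM in mutants and 106, 99.6 and 114 CPM in controls, and its RNA was 516, 627 and 656 CPM against 879, 813 and 942 CPM. The groups did not overlap in either assay, and the TE change was 0.96 (SE 0.15, adjusted p = 0.0563 by edgeR). Ribosomal protein genes have many near-identical pseudogenes, among which reads of either assay could be split, so the value is uncertain. Odc1, the rate-limiting enzyme of polyamine synthesis, had footprints of 22.1, 19.6 and 20.1 CPM in mutants and 28.3, 28.9 and 24.1 CPM in controls, and RNA of 567, 526 and 597 CPM against 482, 419 and 471 CPM. It fell by 0.39 in footprints and rose by 0.31 in RNA, with a TE change of -0.69 (SE 0.14, adjusted p = 0.102 by edgeR). The other genes called in opposite directions were B4galt2, Dgkz, Smim3, Glis2, Shisa5 and Srf, which rose in RNA and fell in footprints, and Herc1, Nemf, Atrx, Cep290 and Klf10, which fell in RNA and rose in footprints.

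The mitochondrially encoded genes, which are translated on mitochondrial ribosomes, are poor in GC. Of the 13 genes, 9 fell in footprints and 9 fell in RNA, against 16.7% and 10.4% of all genes, with medians of -0.77 and -0.64 and a TE median of -0.02. Their median GC content was 37.1%, below the 41% median of the lowest GC decile. After GC and length correction, with a trend fitted over all genes, the TE median was -0.59. How well that trend holds at this end of the range was not tested.

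The TE change of Hbs1l-/- cells was also set against that of cells that lost Pelo, and of the libraries labelled Upf2, by a test of the difference between the TE changes. The RNA controls are shared and cancel in this test. The control footprints of the pools had nearly the same counts, with a chi-square per degree of freedom of 1.10 to 1.19 between same-numbered libraries against 3.54 to 12.6 between footprint replicates, so these comparisons rest mostly on the mutant libraries. The fits still counted same-numbered controls of different pools as separate libraries. Leaving out a control library kept its same-numbered partner. Between Pelo and Hbs1l cells 3670 of 13472 genes (27.2%) differed in TE change by edgeR's test, 1810 higher and 1860 lower in Pelo cells, with 2 Pelo RNA libraries. Between the libraries labelled Upf2 and Hbs1l cells 699 of 13248 (5.28%) differed, 286 higher and 413 lower, a count that lay between 243 (without Hbs1l-/- footprints 3) and 1061 (without RNA 2 of the libraries labelled Upf2) with a library left out. The libraries labelled Upf2 held more Upf2 than the others, 114 to 118 CPM in footprints against 53.5 to 58.1 CPM in the Hbs1l-/- libraries, which at the level of the whole gene goes against their label. UPF2 is a core factor of nonsense-mediated decay (NMD), and transcripts annotated as NMD targets took 2.73% to 2.93% of the estimated counts in the 3 RNA libraries labelled Upf2, against 1.84% to 2.2% in all 8 other MEF RNA libraries. The immediate early genes Ier2, Ccn1, Btg2 and Klf10 were chosen for their low p in the TE fit of Hbs1l-/- cells. That choice favours differences that run against the Hbs1l-/- change. Both comparisons also use the same Hbs1l-/- libraries, so they are not independent and no conclusion is drawn from these genes. For Ier2 the difference was 0.85 (SE 0.17) in Pelo cells and 0.92 (SE 0.22) in the libraries labelled Upf2, with adjusted p = 0.00119 and 0.0222 by edgeR. For Ccn1 the differences were -0.19 (SE 0.13) and 0.21 (SE 0.14), for Btg2 -0.16 (SE 0.18) and -0.17 (SE 0.18), for Banp 0.22 (SE 0.16) and -0.04 (SE 0.14) and for Klf10 -0.28 (SE 0.23) and 0.39 (SE 0.32), none of which passed the test.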

How the data were processed

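Ribosome footprints (aligned to mm10 with HISAT2 2.1.0 after Bowtie2 2.2.3, tools named in the study's methods and the submitters' processing notes) were deposited by the authors as counts per gene over coding sequences, from featureCounts. Poly-A RNA was deposited by the authors as estimated counts per transcript, from kallisto 0.42.4 with Gencode M24. The same files give TPM, deposited by the authors as transcript abundances on a common scale, used here only to weight isoforms for GC content. Transcript estimates were added up within each gene and rounded to whole numbers here. Histone genes were left out by name, as the study did.

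TE change was the assay by genotype term of edgeR 4.0.16 (quasi-likelihood, filterByExpr, TMM factors within each assay, Benjamini-Hochberg over all genes, threshold 0.05), run in R 4.3.3. RNA and footprint changes were fitted apart. CPM are scaled by the TMM factors. Alternatives used DESeq2 1.42.0, limma 3.58.1, other filters and countings, and each library left out in turn. GC content and length used 5-df splines per library and a 141429 of 142552 transcript match to Gencode M21. The TE fits of edgeR, DESeq2, limma voom and the GC and length correction were tested on simulated counts, with the same dispersion in both assays. The separate footprint and RNA fits, the comparisons with Pelo and Upf2 and the other alternatives were not.

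Named genes were the targeted genes, the genes called for TE, up to 8 genes per direction with the largest called change in either assay (at least 5 CPM in both assays, groups not overlapping), and up to 3 members per direction of each list by p for TE or by called change. The genes called in opposite directions, those called after the correction, Slfn5 beyond its list rule, and the sequences were picked after their values were seen. The members and lists were chosen with earlier results of these data known. Per the study's methods the replicates of a genotype were separate embryos in each assay. Whether libraries with the same number in the assays came from the same embryo is not given in the sources used here.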

Additional observations from a re-analysis of the deposited data

Results flagged for a closer look

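The difference in TE change between Pelo and Hbs1l cells was called for 3670 genes by edgeR's quasi-likelihood test, of which 1580 differed at least 2-fold. This difference was flagged by a rule for differences between groups, so the flag restates the test and adds nothing to it. Its Spearman correlation with GC content across genes was -0.0384, against -0.51 for the TE change of Hbs1l-/- cells alone over all genes tested. It rests on 2 Pelo RNA libraries.

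The same test between the libraries labelled Upf2 and Hbs1l cells called 699 genes (243 to 1061 with a library left out, the lowest without Hbs1l-/- footprints 3 and the highest without RNA 2 of the libraries labelled Upf2), 367 of them by at least 2-fold, with a Spearman correlation with GC content of 0.0653. In both comparisons the control footprints of the pools nearly cancel. Pelo footprints were 2.03 to 2.93 CPM in the Pelo libraries, whereas Upf2 over the whole gene was higher, not lower, in the libraries labelled Upf2. In the same libraries the share of estimated counts on transcripts annotated as NMD targets was higher, at 2.73% to 2.93% against at most 2.2% in the other MEF RNA libraries.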

How the results depend on the processing

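The number of genes called for TE, 2 as fitted, was the value most open to the processing, and the cause of its changes was not tested. It was 313 with DESeq2, 170 with limma voom and sample quality weights, 22 with no filter, 4 with the stricter filter, 16 with histone genes kept (8 of them histone genes), 11 with the control footprints of the 3 pools summed, 6 with a transcript length offset, and 0 with protein-coding transcripts only (2102 genes at an unadjusted p below 0.05). Of alternatives chosen after seeing the data, GC and length correction gave 38, leaving out the Klf10 transcript with the run of A gave 1, and leaving out control number 3 in both assays gave 1. Leaving out a library gave 0 to 39: 39 without control RNA 1 (37 of these also called by DESeq2), 4 without Hbs1l-/- RNA 1 or 3, 1 without Hbs1l-/- RNA 2, and 0 without Hbs1l-/- footprints 2 or 3, control footprints 1 or 2, or control RNA 2 or 3, where edgeR left 1593 to 2026 genes at an unadjusted p below 0.05. In all, 350 genes were called in at least 1 fit. Same-numbered footprint and RNA libraries correlated at 0.15, -0.12 and 0.41 in mutants and -0.05, -0.14 and 0.26 in controls over 7527 genes, so not every pair was above 0.1 and the numbers were not taken as pairs; 3 of the 6 were, and control number 3 alone held Y chromosome reads in both assays. With the replicate number as a block 1 gene was called for TE, and with a replicate block within genotype 10. The block gave 4043 calls in footprints, 2815 in RNA, 3552 for Pelo minus Hbs1l and 537 for Upf2 minus Hbs1l, and a slope of 0.7706 and a correlation of 0.7767.

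Leaving out a library gave 2913 to 4078 calls in footprints, 1820 to 2679 in RNA (1820 without control RNA 2, 2217 without Hbs1l-/- RNA 2), 2679 to 4200 for Pelo minus Hbs1l and 243 to 1061 for Upf2 minus Hbs1l. The last count was 1061 without RNA 2 of the libraries labelled Upf2 and 243 to 462 without their RNA 1 or footprints 1 or 2, their control footprints 1 or 2, Hbs1l-/- footprints 3 or RNA 2, or control footprints 1 or 3 of the Hbs1l pool. The slope of footprint on RNA change was 0.5604 with no filter, 0.6862 over genes of at least 10 CPM, 0.8823 after GC and length correction and 0.7027 to 0.8555 with a library left out. The correlation was 0.4413, 0.7465, 0.8481 and 0.7225 to 0.8136 in the same order. The footprint change of Banp lay between -0.019 and 0.0745 with a library left out, and reversed to -0.019 without Hbs1l-/- footprint replicate 1 and to -0.0063 with summed control footprints. Of the values for named genes and list medians, 1784 were labelled the same, 75 moved and 2 reversed. A further 94 passed the threshold in addition and 21 no longer passed. For genes, the same meant an unchanged direction and side of the threshold. For list medians it meant a shift from the main fit smaller than the SD of the medians with a library left out. A change of sign was not labelled for list medians, and the 60S median lay between -0.056 and 0.2025 over the alternatives.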

Other observations

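Other gene lists moved in the assays as follows, with values as measured. Of 24 p53 target genes, 15 fell and 1 rose in footprints, against 16.7% and 17.4% of all genes, and 7 fell and 4 rose in RNA, against 10.4% and 12.7%. Their TE median was -0.13. Pmaip1, a pro-apoptotic BH3-only protein, fell by 1.93 in RNA and by 1.43 in footprints, and Perp, a desmosome protein that p53 induces, fell by 1.68 and 1.80. Subunits of oxidative phosphorylation encoded in the nucleus fell in footprints for 22 of 72 and rose for 2, against 16.7% and 17.4% of all genes. In RNA 3 of 73 fell and 2 rose, against 10.4% and 12.7%. Their TE median was -0.10, and -0.00034 after GC and length correction.

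Of 20 cytosolic aminoacyl-tRNA synthetases, 12 rose in footprints and 5 in RNA, against 17.4% and 12.7% of all genes, and none fell. Of 39 core spliceosome genes tested in footprints 21 rose and none fell, and 14 of 41 rose in RNA and 1 fell, to be read against the same shares of all genes. Among polyamine genes, Oaz1, the antizyme that inhibits ornithine decarboxylase and is made by a programmed frameshift, rose by 0.37 in RNA with a footprint change of -0.13 and a TE change of -0.48, and Sat1, which acetylates polyamines, fell by 1.20 in RNA and 0.83 in footprints.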
